A study of Schizothorax plagiostomus with 18 samples.

Results

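In the testis of a seasonally breeding snow trout, 65 of 135031 RNA features stood highest after spawning while also being detected in the ovary. Features are single transcripts or clusters of transcripts of Schizothorax plagiostomus, a cyprinid of Himalayan rivers, and carry no gene names in the files. Members were selected on these measured values: a feature was chosen when its post-spawning testis mean was at least 10 counts per 1000000 counts (CPM) and more than 3 times both the pre-spawning and the spawning testis means, with the lowest post-spawning testis library above all 6 other testis libraries. It also needed more than 10 counts in an ovary library. Of 11045 features that reached 10 CPM, 88 met the fold, 79 of these also met the separation of libraries, and 67 the ovary count. A further 2 were dropped because their testis to ovary ratio was at least 4 at one stage and at most 0.25 at another. The stage differences in testis were therefore used to choose the members, and they are described below without being offered as findings.

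The groups were testes before, at and after spawning and ovaries before, at and after spawning, of fish with no treatment or mutation named in the labels, with 3 libraries in each of the 6 groups. The labels give no age and do not name separate fish for the libraries. The p-values below therefore reflect only variation among the sampled libraries, part of which may be technical. A second name in the labels begins with Y1III or Y1_III for all 3 post-spawning testes (Y1IIIB, Y1_IIIB_2 and Y1IIIC). It begins with X4III or X4_III for post-spawning ovaries 2 and 3 (X4IIIA and X4_IIIA_2). The libraries of each other group carry different numbers after the letter, while some numbers recur across groups. An example is X1_1A, X1_2A and X1_3A for pre-spawning, spawning and post-spawning ovary 1. Whether such names mark a shared fish is not stated. Per the labels a library's replicate number is its season, so the 3 libraries of a group carry different seasons. Over 42187 features that were not members, Spearman correlations between post-spawning testes were 0.959 to 0.978, against 0.845 to 0.892 between spawning testes and 0.807 to 0.911 between pre-spawning testes. Post-spawning ovaries 2 and 3 correlated at 0.96, and each correlated with post-spawning ovary 1 at 0.804 and 0.811. Total counts ran from 24682616 to 52676056 in testes and from 14604277 to 47801904 in ovaries.

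In fish that breed once a season, the testis fills with sperm as spawning nears, and after release the remaining sperm are cleared by phagocytic Sertoli cells and immune cells while spermatogonia begin to renew the germ line. The tissue therefore changes its mix of germ, somatic and blood cells over the cycle. In RNA from whole gonads, more cells of a type and more RNA per cell cannot be told apart. No cell type marker could be checked here, because the features have no gene names, and no protein or nucleotide sequence is given for the same reason.

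The members differed widely in abundance. Their post-spawning testis means ran from 10 CPM to 66193 CPM with a median of 34.1 CPM, and 12 of the 65 reached 100 CPM. The most abundant by far was cluster18, made of 78 transcripts. It stood at 11148, 10085 and 3594 CPM in pre-spawning testes, at 8272, 33706 and 14798 CPM in spawning testes and at 73370, 70278 and 54930 CPM in post-spawning testes. Spawning testis 2 stood above the other spawning testes but below every post-spawning testis. In ovaries cluster18 was lower, at 1817 to 4153 CPM before spawning, 2104 to 5699 CPM at spawning and 2403 to 11783 CPM after spawning.

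With cluster18 left out, the 64 remaining members summed to 452 ± 142 CPM in pre-spawning, 856 ± 155 CPM in spawning and 3594 ± 256 CPM in post-spawning testes (SD, n = 3 each). Ovaries held 3271 ± 4949, 349 ± 27.1 and 363 ± 106 CPM at the same stages (SD, n = 3 each). The high ovary value before spawning came from a single feature in a single library, cluster19008 in pre-spawning ovary 1 at 8502 CPM. Without that feature as well, the ovary sums were 436 ± 41.2, 348 ± 25.1 and 356 ± 108 CPM. The pre-spawning ovaries then lay above the spawning ovaries, and the post-spawning ovaries overlapped both. That difference in the sum was weighted to abundant members. The ovary means of cluster13410 were 189 CPM before and 138 CPM at spawning, and those of cluster29604 were 85.5 and 61.2 CPM. Of 55 members tested in ovaries, 24 had a log2 fold change above 0 at spawning against pre-spawning.

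**Figure D1:**
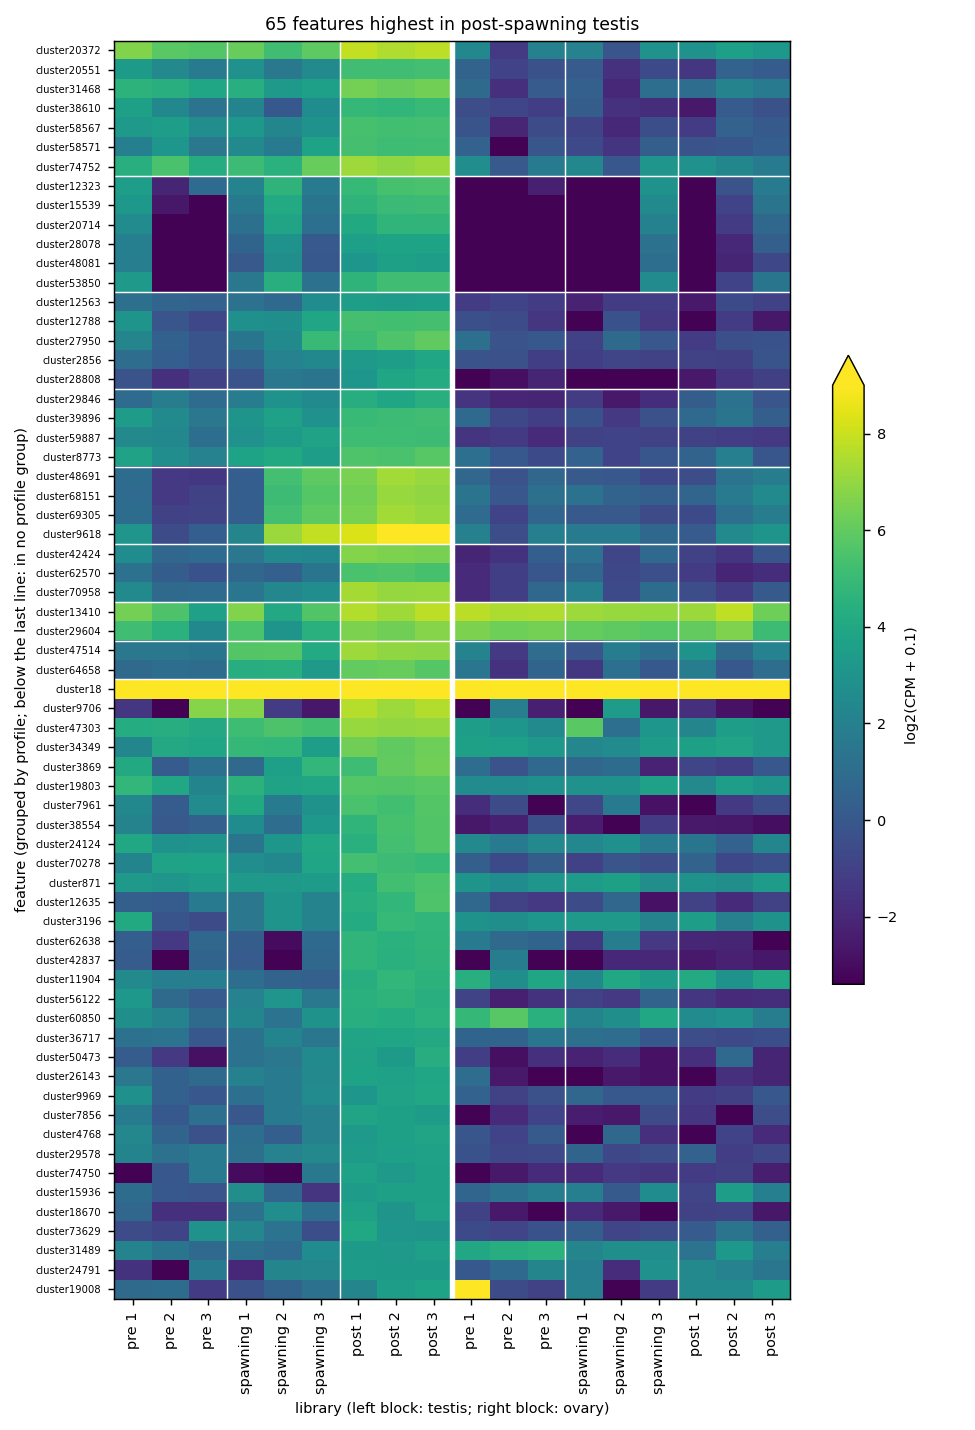
Level of each of the 65 features in each of the 18 libraries, as log2(CPM + 0.1), with testis libraries in the left block and ovary libraries in the right block, each in the order pre-spawning, spawning and post-spawning. Rows above the last horizontal line are the 33 features in 8 profile groups, and the colour scale ends at 9, above which values share 1 colour (cluster18, post-spawning testis 2 of cluster9618 and pre-spawning ovary 1 of cluster19008).

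The excess after spawning was moderate for the majority of members. The ratio of the post-spawning mean to the higher of the other testis means had a median of 3.81, with 39 members up to 4, 13 between 4 and 5, 8 between 5 and 10 and 5 above 10. Just inside the limit of 3 lay cluster20372 at 3.03, cluster29578 at 3.05 and cluster24791 at 3.11. Just outside it lay cluster27465 at 2.98, cluster32286 at 2.94 and cluster49050 at 2.92, so the limit falls within a continuous range. With a limit of 2 in place of 3 the rule took 193 features, and with a limit of 5 it took 13.

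The 6 members with the largest ratios were single transcripts that were low in every other testis library. The feature cluster70958 stood at 5.79, 1.78 and 1.78 CPM in pre-spawning testes, at 2.63, 4.95 and 6.36 CPM in spawning testes and at 158, 131 and 135 CPM in post-spawning testes. The feature cluster42424 lay at 1.51 to 6.17 CPM before spawning, at 2.74 to 5.79 CPM at spawning and at 105, 93.2 and 88.3 CPM after spawning. For both, the lowest post-spawning library was over 10 times the highest of the other testes.

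The same separation was seen in cluster62570, at 0.729 to 2.31 CPM in pre-spawning testes, 1.23 to 2.55 CPM in spawning testes and 43.8, 47.3 and 41.7 CPM in post-spawning testes. Its profile over the 18 libraries resembled those of cluster70958 and cluster42424 (Pearson r of at least 0.95 on log2(CPM + 0.1), across libraries that share tissue and depth). The features cluster62638 and cluster42837 reached 24.9 ± 2.15 and 24.5 ± 2.16 CPM after spawning (SD, n = 3 each). In the other testes they lay at 0.0216 to 1.68 CPM and at 0 to 1.6 CPM, lowest in pre-spawning testis 2 and spawning testis 2. The last of the 6, cluster74750, stood at 13, 9.66 and 12.5 CPM after spawning and reached 3.28 CPM in pre-spawning testis 3 and 2.96 CPM in spawning testis 3, with at most 0.888 CPM in the other 4 testes. In ovaries none of these 6 features exceeded 3.77 CPM.

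**Figure D2:**
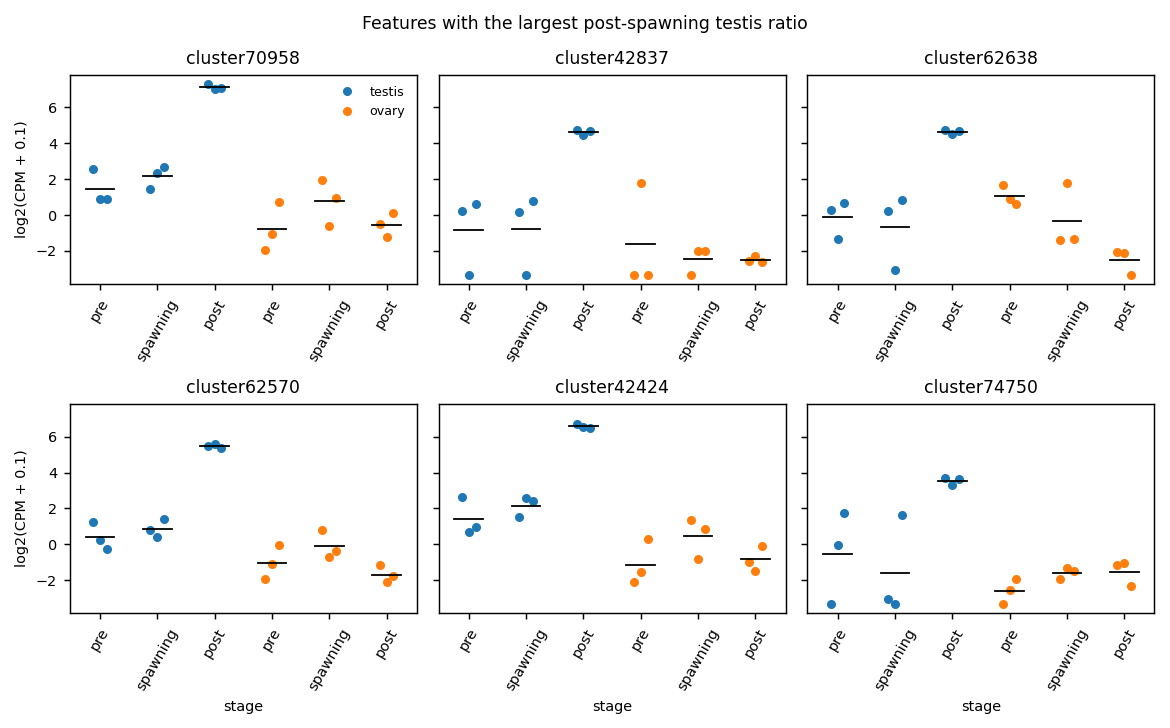
Levels of the 6 features with the largest ratio, as log2(CPM + 0.1); each point is a library and each bar the mean of the 3 log values of a group, with testis on the left and ovary on the right of each panel. The post-spawning testes lie together and above every other library of either gonad in all 6 panels.

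By edgeR's quasi-likelihood test on the 9 testis libraries, 50 of the 65 members were called higher in post-spawning than in pre-spawning testes (adjusted p under 0.05), where 3.18% of all 51080 features tested were called higher, 2.97% lower and 6.15% in all. Against spawning testes 5 members were called higher, where 0.0176% of all features were (0.0352% in either direction). These were cluster11904, cluster62570, cluster70958, cluster31468 and cluster58567. The rule used these contrasts, so nothing is read from the counts. The post-spawning level was also enough by itself to carry every member through the low-count filter. For cluster62570 the difference on the log2 scale was 5.61 against pre-spawning (SE 0.46) and 4.65 against spawning testes (SE 0.44), with edgeR adjusted p of 0.00545 and 0.0163.

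The calls changed with the libraries used. When the 3 post-spawning testes were summed and entered as 1 library, which is then assumed to vary like the other groups, no member passed in either contrast by edgeR, and no other feature did. The members' median log2 fold changes in that fit were 3.65 and 2.04, beside 3.61 and 1.99 with the 3 libraries kept apart. Against pre-spawning testes the count was 5, 6 and 4 without post-spawning testis 1, 2 and 3 (0.0183%, 0.0256% and 0.0147% of all features). It was 0 and 18 without pre-spawning testis 2 and 3 (0.00372% and 0.276%), and 60 without pre-spawning testis 1 (17.7%). Without spawning testis 1, 2 and 3 it was 54, 51 and 50 (11.7%, 6.97% and 6.67%). Against spawning testes it was 0 without any of the post-spawning testes or without spawning testis 2, where no feature was called at all. It was 1 without spawning testis 3 (0.00553% of all features) and 7 without spawning testis 1 (0.325%). Without pre-spawning testis 1, 2 and 3 it was 7, 5 and 6 (0.082%, 0.0446% and 0.0671%). It was 38 with DESeq2 in place of edgeR, where 5.28% of all features were called. With season as a block it was 1 (cluster11904), where 0.00587% were called. The median log2 fold change of the members stayed near its value of 3.61 against pre-spawning testes (3.40 to 3.85 when a library was left out) and of 1.99 against spawning testes (1.80 to 2.19).

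The rule did not set spawning testes against pre-spawning testes. It did limit both from above, so this comparison is given as a description and the shares of all features as background only. The members' post-spawning level was enough to pass the low-count filter. All 65 also passed it in a fit on only the spawning and pre-spawning testes. Of the 65 members, 11 rose at spawning and none fell (edgeR adjusted p under 0.05, 16.9%), where 1.83% of all features tested rose and 2.21% fell (4.04% in all). The 11 include sets that share a name stem, named below, so they are not 11 separate observations. The members had a median log2 fold change of 1.42, against 0.03 for all features. By scaled values 62 members lay above 0, and by CPM without that scaling 51 had the higher mean at spawning. In the separate fit on all 18 libraries, the scaling factors were 0.755 to 0.993 for spawning and 1.29 to 1.45 for pre-spawning testes. Those of the testis fit used here are not given. By CPM 7 members had every spawning testis above every pre-spawning testis and 1 had every one below, where 3.86% and 28.0% of all features did.

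The members that rose at spawning included sets that share a name stem. The feature cluster47514 stood at 50.7, 52.2 and 18.3 CPM in spawning testes, against 2.72, 2.8 and 2.55 CPM in pre-spawning testes (4.53 on the log2 scale, SE 0.5, edgeR adjusted p = 0.0259). Its stem partner cluster64658 stood at 20.1, 21.2 and 9.94 CPM, against 1.76, 2.04 and 1.86 CPM (log2 fold change 3.79, SE 0.41). In both, every spawning library exceeded every pre-spawning library, and both stood higher still after spawning, at 128 ± 15.3 and 61.7 ± 8.56 CPM (SD, n = 3 each). The feature cluster47303 stood at 35.6, 45.7 and 38.3 CPM at spawning, against 19, 20.1 and 16.7 CPM before spawning (1.71 on the log2 scale, SE 0.3, edgeR adjusted p = 0.0387).

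The other risers were cluster9618, cluster48691, cluster69305 and cluster68151, which share a stem, and cluster50473, cluster28808, cluster26143 and cluster59887. On the other side, cluster11904 had the smallest p of the members that were lower at spawning, at 1.99, 1.34 and 1.23 CPM against 5.49, 3.68 and 3.69 CPM before spawning. Its libraries did not overlap, yet it missed the threshold (-0.91 on the log2 scale, SE 0.29, edgeR adjusted p = 0.0828). After spawning it stood at 20.1, 27.8 and 23.5 CPM, so its lowest stage in testis was spawning. For cluster38610 and cluster74750, next in order, the log2 fold changes were -0.29 (SE 0.62) and -0.08 (SE 1.65).

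The count of 11 risers depended on the fit. No feature was called by edgeR with season as a block, or in a fit on only the 6 libraries compared. The same held with the post-spawning testes summed to 1 library. DESeq2 called 24 members higher and 1 lower. In this comparison DESeq2 called 19.1% of all 51080 features in either direction. The edgeR count was 0 without any post-spawning testis or without pre-spawning testis 2 or 3. It was 2 and 3 without spawning testis 2 and 3, where 0.0623% and 0.851% of all features were called. It was 17 without spawning testis 1 and 30 without pre-spawning testis 1, where 6.33% and 14.7% of all features were called. The members' median log2 fold change was 1.02 to 1.81 when a library was left out.

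**Figure D3:**
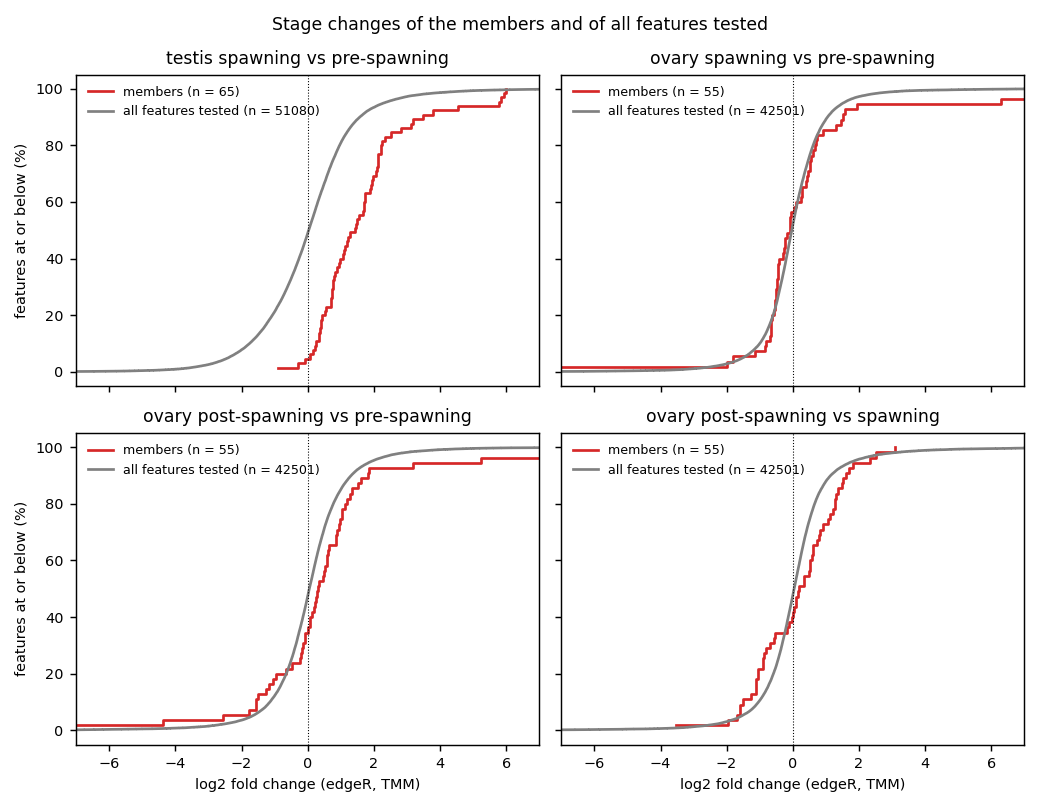
Cumulative share of features at or below each log2 fold change (edgeR, TMM scaling) for the members (red) and for all features tested (grey), in testis at spawning against pre-spawning and in the 3 ovary stage comparisons; the axis is cut at -7 and 7. The members lie to the right of all features in testis (median 1.42 against 0.03) and close to them in ovary.

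Several members were high in some libraries of a stage and nearly absent from others. In 16 of 65 members the highest pre-spawning testis was at least 10 times the lowest, and in 12 the same held for spawning testes, against 4.96% and 4.73% of the 11045 features of at least 10 CPM in post-spawning testis. The 16 include the 6 members of a shared profile named below, so they are not 16 separate observations. No member showed such a spread among post-spawning testes, a condition the rule itself favours. The median coefficient of variation of the members in testes was 65.7% before, 59.9% at and 13.9% after spawning, beside 30.1%, 37.9% and 13% for those 11045 features. The rule held the members low in the earlier stages, with library medians of 1.38 to 4.83 CPM before and 2.99 to 6.26 CPM at spawning. The 11045 features were not matched to them there, so the wider spread is not read as a trait of the members.

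The clearest case was cluster9706, a cluster of 4 transcripts. It stood at 0.274, 0 and 107 CPM in pre-spawning testes, at 107, 0.324 and 0.0638 CPM in spawning testes, and at 193, 147 and 188 CPM in post-spawning testes. A single library in each of the earlier stages thus held more than 100 CPM and the rest next to nothing. All 3 post-spawning testes were higher, as the rule required. Ovaries ranged from 0 to 10.8 CPM, with the highest values in pre-spawning ovary 2 at 3.7 CPM and spawning ovary 2 at 10.8 CPM. Post-spawning ovary 2, of the same season, held 0.0431 CPM.

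A set of 4 members with a common stem, cluster9618, cluster48691, cluster69305 and cluster68151, was split in another way. The feature cluster9618 stood at 8.21, 0.592 and 1.13 CPM in pre-spawning testes, at 4.58, 143 and 233 CPM in spawning testes, and at 328, 564 and 504 CPM in post-spawning testes. The feature cluster48691 ran in parallel, at 1.85, 0.296 and 0.284 CPM before, 1.13, 38.8 and 60.3 CPM at, and 90.2, 157 and 134 CPM after spawning. Spawning testis 1 resembled the pre-spawning testes in both, and spawning testes 2 and 3 stood between the stages. Values of cluster69305 differed from those of cluster48691 by less than 0.5 CPM in every library, so these features may draw on the same transcripts and are not separate observations.

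A further 6 members, cluster12323, cluster15539, cluster20714, cluster28078, cluster48081 and cluster53850, shared a profile with libraries at or near 0. In cluster53850 the pre-spawning testes stood at 9.65, 0 and 0 CPM, the spawning testes at 2.85, 21.2 and 2.3 CPM, and the post-spawning testes at 25.6, 36.3 and 36.2 CPM. Ovaries were at 0 in all 3 pre-spawning libraries, in spawning ovaries 1 and 2 and in post-spawning ovary 1, while spawning ovary 3 held 5.94 CPM and post-spawning ovaries 2 and 3 held 0.431 and 2.54 CPM. A count of 0 allows up to 3 counts in a library, for counting error only. Presence in this set therefore cut across stage and gonad among the other libraries. The rule itself required it in all 3 post-spawning testes.

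**Figure D4:**
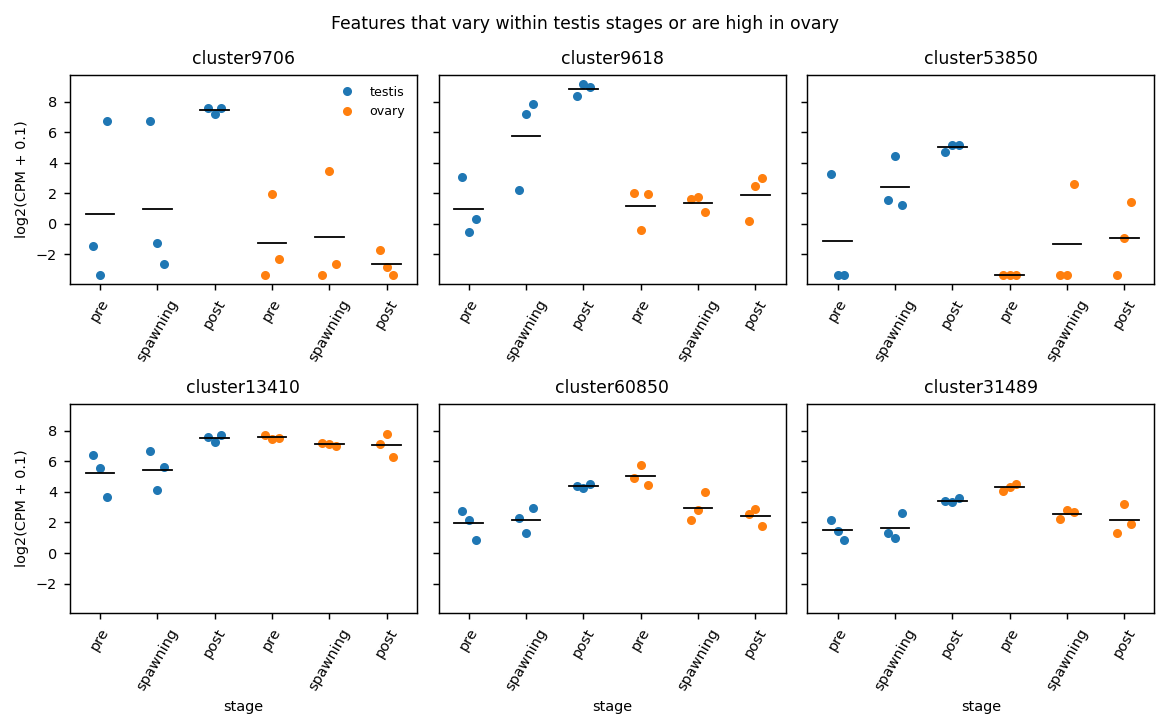
Levels of 6 features, chosen after their values were seen, as log2(CPM + 0.1); each point is a library and each bar the mean of the 3 log values of a group. In the upper row testis libraries of a stage lie far apart before or at spawning, and in the lower row the pre-spawning ovaries lie above the pre-spawning testes.

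Reads of a gene can be divided between features, and 44 of the 65 members shared the stem of their transcript identifiers with another feature. With a stem found in 218 features, including cluster18 and cluster27950, left out, 43 members did so. For these the CPM of all features with the stem were added together, an alternative chosen after the data were seen. The summed post-spawning testis level was then more than 3 times both other stages for 22 of the 43 and not for 21, with a median ratio of 3.03 against 3.76 for the members alone. A sum held by several members was counted once for each, and in many of the 22 it consisted almost wholly of members. The 22 therefore do not measure how often the excess outlasts the summing. In 7 of the 43 the summed ratio was at most 1.5, among them cluster53850 (1.17) and cluster12323 (1.37) of the set with libraries at 0.

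Among those 7, cluster4768 alone had a ratio of 5.16, while the 3 features with its stems together stood at 62.3 CPM before spawning, 59.8 CPM at spawning and 67.8 CPM after spawning, a ratio of 1.09. The member made up 18% of the post-spawning sum. For cluster24791 the sum over 40 features was 39.6 CPM after spawning against 51.6 CPM at spawning, a ratio of 0.77. The sums for cluster18 (ratio 3.5), for the 4 members around cluster9618 (3.73) and for the pair cluster47514 and cluster64658 (3.29) consisted almost wholly of the members themselves. So did those for the pairs cluster3869 and cluster24124 (4.28) and cluster15539 and cluster28078 (3.96). The same held for cluster7856, cluster8773 and cluster39896, at 99.6%, 98.1% and 96.9% of their sums. The rule thus fixed these ratios and they say nothing further. For cluster18, features sharing only the stem of 218 features were left out, and a sum with them was not taken. For cluster42837 and cluster74750, which share a stem with 8 features that are not members, the sum had a ratio of 6.63, below the 28.1 and 8.44 of the members alone. These members made up 44% and 21% of the post-spawning sum, so the rule set much of that ratio. A ratio for the 8 other features alone was not taken.

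**Figure D5:**
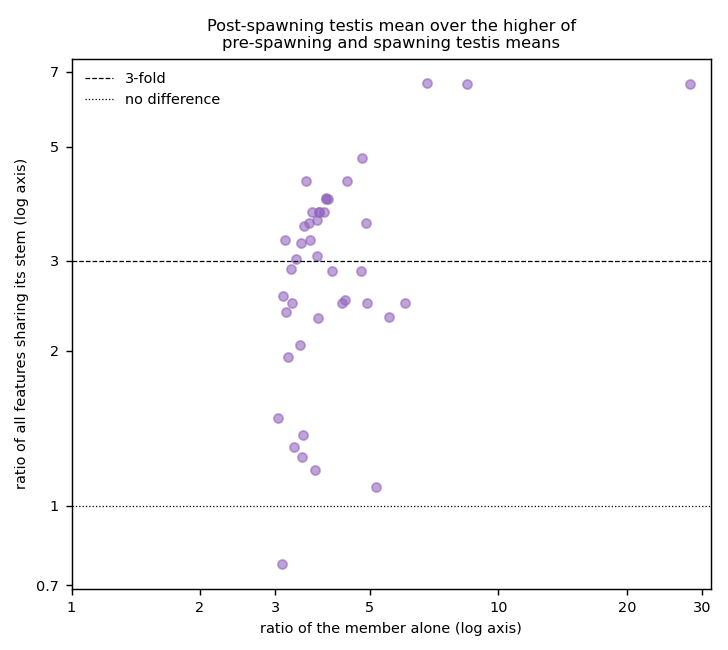
Ratio of the post-spawning testis mean to the higher of the other testis means for each of 43 members alone (horizontal log axis) and for all features that share a stem with it (vertical log axis). By the sums 22 members stay above the dashed line at 3, many with sums made almost wholly of members, and 1, cluster24791, falls below the dotted line at 1.

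Ovary stage differences were not used in choosing members, apart from the minimum count and the drop on gonad ratios. Of the 65 members, 55 passed the low-count filter in ovaries and none was called between any stages (edgeR on 9 ovaries, 0.0% of 42501 features called in each comparison). At an unadjusted p under 0.05 there were 6 members for spawning against pre-spawning, 9 for post-spawning against pre-spawning and 6 for post-spawning against spawning. These were 10.9%, 16.4% and 10.9% of the 55, beside 4.92%, 9.26% and 7.14% of all features. DESeq2 called 2, 5 and 0 members, beside 0.209%, 1.02% and 1.04% of all features. Post-spawning ovaries had a median log2 fold change of 0.32 against pre-spawning ovaries, with 36 of 55 members above 0, beside 0.05 and 52.4% for all features. Against spawning ovaries it was 0.19 with 33 of 55 above 0, beside 0.04 and 52.2%. It ranged from -0.27 without post-spawning ovary 2 to 0.67 without spawning ovary 3. For spawning against pre-spawning ovaries it was -0.09 with 24 of 55 above 0, beside -0.03 and 48%. This median changed sign, to 0.34 without pre-spawning ovary 1 and to 0.11 without pre-spawning ovary 3, and was -0.26 without pre-spawning ovary 2 or without spawning ovary 3.

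Counts of members whose ovary groups did not overlap were near the background. For post-spawning against pre-spawning ovaries 4 were higher and 6 lower (4.86% and 9.25% of all features), for post-spawning against spawning 3 were higher and 5 lower (3.64% and 5.0%), and for spawning against pre-spawning 2 were higher and 4 lower (7.52% and 5.1%). The feature cluster29846 was higher after spawning in ovary as in testis. Its ovaries held 0.261, 0.136 and 0.132 CPM before spawning, 0.324, 0.0733 and 0.188 CPM at spawning and 1.1, 2.35 and 0.804 CPM after spawning. The post-spawning ovaries lay above all others, but the change did not pass (3.18 on the log2 scale against pre-spawning, SE 0.86, edgeR adjusted p = 0.53).

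Other members, taken for their small p in post-spawning against pre-spawning ovaries, were lower there after spawning, although none was called. The feature cluster60850 stood at 5.89, 7.26 and 3.35 CPM in post-spawning ovaries, against 29.4, 54.2 and 22 CPM in pre-spawning ovaries, without overlap (-2.56 on the log2 scale, SE 0.66, edgeR adjusted p = 0.53). In testes it stood at 20.7, 19.1 and 23.2 CPM after spawning, against 6.72, 4.34 and 1.74 CPM before spawning. The feature cluster31489 stood at 2.4, 9.14 and 3.64 CPM in post-spawning ovaries, against 16.5, 20 and 22.9 CPM in pre-spawning ovaries. Its testes were at 10.3, 9.88 and 12 CPM after spawning, against 4.35, 2.6 and 1.7 CPM before spawning. In both features every pre-spawning ovary lay above every pre-spawning testis, and every post-spawning testis above every post-spawning ovary. The ovary change of cluster62638 had the same sign, at 0.137, 0.129 and 0 CPM after spawning, against 3.1, 1.76 and 1.42 CPM before spawning. Its post-spawning ovaries held only 2, 6 and 0 counts.

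The largest ovary differences at spawning rested on single libraries. For cluster19008 the log2 fold change of spawning against pre-spawning ovaries was -11.01 (SE 3.55, edgeR adjusted p = 0.868), with 3.97, 0 and 0.335 CPM at spawning, against 8502, 0.576 and 0.395 CPM before spawning. Without pre-spawning ovary 1 it was 1.42, so that library fixed both the sign and the size. For cluster53850 the value of 9.08 (SE 3.47) came from spawning ovary 3 alone.

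Between gonads, the members were closer before spawning than after it. The median ratio of the testis to the ovary mean was 4.16 before spawning, 7.39 at spawning and 32.3 after spawning. After spawning all 65 members had the higher mean in testis, 56 of them by at least 4-fold. On 18 libraries edgeR called 21 members higher and 6 lower in testis before spawning (22.1% and 19.8% of 53536 features), 37 higher and 1 lower at spawning (23.1% and 22.3%), and 53 higher after spawning (19.4%). In either direction 41.9%, 45.4% and 41.5% of all features were called before, at and after spawning. By CPM 26 members had all 3 testes above all 3 ovaries before spawning and 5 the reverse (37.7% and 18.7% of all features). At spawning the numbers were 36 and 3 (25.2% and 26.0%), and after spawning 61 and 0 (30.3% and 25.4%). The rule used testis levels and the gonad ratio, so these counts are a description. Before spawning the members' median log2 fold change of testis against ovary was 1.57, and 0.22 without pre-spawning testis 1, when 13 members were called higher and 7 lower.

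Levels in ovary were low for the majority, with a 9-library mean under 1 CPM in 33 members, from 1 to under 10 CPM in 23 and of at least 10 CPM in 9. The stem partners cluster13410 and cluster29604 belonged to the last group. For cluster13410 the ovaries held 210, 175 and 182 CPM before, 146, 137 and 130 CPM at, and 140, 225 and 77.2 CPM after spawning. Its testes held 84.4, 46.2 and 12.8 CPM before, 100, 17 and 49.4 CPM at, and 192, 152 and 215 CPM after spawning. Post-spawning testes thus lay within the range of ovaries, and the earlier testes below all ovaries but post-spawning ovary 3. The values of cluster29604 ran in parallel at about the same proportions, with 94 ± 15.3 CPM in post-spawning testes and 65.1 ± 31 CPM in post-spawning ovaries (SD, n = 3 each).

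The feature cluster11904 was called lower in testis than in ovary before spawning (-2.16 on the log2 scale, SE 0.45, edgeR adjusted p = 0.0017) and at spawning (log2 fold change -2.62, SE 0.46). After spawning its testes stood at 20.1, 27.8 and 23.5 CPM and its ovaries at 18, 7.69 and 16.4 CPM. The gonads were thus far closer after spawning, with all 3 testes above all 3 ovaries.

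The change in testis was set against the change in ovary in the same 18-library fit. For post-spawning against pre-spawning, 16 members differed, in each case with the higher value in testis (edgeR adjusted p under 0.05; 0.136% of all features in that direction and 0.273% in both). For post-spawning against spawning 1 member differed, cluster62570 (0.00187% in that direction and 0.00934% in both). For spawning against pre-spawning none did, where 0.0112% of all features differed upward, 0.00374% downward and 0.0149% in both directions. In that comparison 19 members (29.2%) had an unadjusted p under 0.05, beside 14.3% of all features. DESeq2 called 14, of them 12 higher and 2 lower, beside 2.56% of all features in either direction. The rule fixed the testis side of the post-spawning comparisons. With season as a block 4 of the 16 passed, cluster36717, cluster70958, cluster60850 and cluster62570. With the post-spawning testes summed to 1 library none did. The count was 0 to 5 without any post-spawning testis, any pre-spawning ovary, post-spawning ovary 2 or 3, or pre-spawning testis 2 or 3. Of all features, 0.0% to 0.134% were called in those fits. The count was 8 to 11 without post-spawning ovary 1, spawning testis 2 or 3 or any spawning ovary (0.183% to 0.471% of all features). It was 19 without spawning testis 1 (0.398%) and 23 without pre-spawning testis 1 (0.79%).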

How the data were processed

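RNA was measured in 18 gonad libraries. Per the labels' protocols, RNA was extracted with Trizol, depleted of ribosomal RNA with a kit for human, mouse and rat, and made into Illumina libraries. The files deposited by the authors are counts for each feature, all whole numbers, and a map from transcripts to features. The tools fastp and Salmon are named, per the submitters' processing notes. Their versions, the transcriptome and the clustering were not given in the sources used here, and the counts may be rounded estimates.

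CPM were computed from library totals. Counts were tested with edgeR 4.0.16 (glmQLFit and glmQLFTest, TMM scaling, filterByExpr, Benjamini-Hochberg adjustment over all features tested, threshold 0.05) in R 4.3.3, on 9 libraries for stages within a gonad and on 18 with 6 group means otherwise. The SE of a log2 fold change came from the F statistic. Alternatives were RLE scaling, DESeq2 1.42.0, no low-count filter, season as a block, other sets of libraries, each library left out, and other settings of the rule. Per the labels a library's replicate number is its season, which the labels call a batch, so replicates are paired across groups. Deviations from group means correlated at 0.0464 on average between testes of the same season (-0.226 to 0.263). Between ovaries of the same season the average was 0.0195 (-0.335 to 0.208). Because each group was centred on its own mean, the averages between different seasons (-0.0232 and -0.0103) were largely fixed by these. They add no separate evidence on pairing.

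The members, lists and tests were chosen with earlier results of these data known. Named features were the 8 of highest post-spawning testis mean, the 6 of largest ratio, the 6 of highest ovary mean, the 4 of smallest p in each ovary comparison, the 3 of smallest p in each direction between spawning and pre-spawning testes, those nearest the fold limit and those sharing a stem; others named were chosen after their values were seen. A list of gonad cell type markers could not be applied to unnamed features.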

Additional observations from a re-analysis of the deposited data

Results flagged for a closer look

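The difference between the testis change and the ovary change passed for 9 named features in post-spawning against pre-spawning gonads (edgeR on 18 libraries, adjusted p under 0.05). In each case the higher change was in testis, and the rule that chose the features had used the testis side. Of the 9, cluster60850, cluster62638 and cluster31489 were also named by a small p on the ovary side of this comparison. For them both sides had been used, so nothing is read from their passing. On the log2 scale it was 9.69 for cluster62638, 6.98 for cluster48691, 6.69 for cluster62570, 6.22 for cluster70958 and 5.48 for cluster60850. It was 5.47 for cluster42424, 5.08 for cluster47514, 5.04 for cluster64658 and 4.29 for cluster31489. In post-spawning against spawning gonads it was 6.70 for cluster62570. With the post-spawning testes summed to 1 library none of these passed.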

How the results depend on the processing

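The main limits are the likeness of the post-spawning testes, whose names in the labels share a number, and the small number of libraries. With those testes summed to 1 library, the members called fell to 0 for testis spawning against pre-spawning (11 otherwise), 0 for post-spawning against pre-spawning (50) and 0 for post-spawning against spawning (5), and to 0 and 0 for the differences between gonads in the post-spawning changes (16 and 1). With season as a block the first of these was 0, the third 1, and the post-spawning against pre-spawning difference between gonads 4; the block moved no other count of members by over 1.5 times. With post-spawning ovaries 2 and 3 summed those differences numbered 4 and 0. A fit on the 6 libraries compared gave 0 for testis spawning against pre-spawning, and a fit on 18 libraries gave 3 for testis post-spawning against spawning.

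DESeq2 called 25 and 38 members for testis spawning against pre-spawning and post-spawning against spawning (19.1% and 5.28% of all features). It called 2 and 5 for ovary spawning and post-spawning against pre-spawning (0.209% and 1.02%). For the differences between gonads it called 14, 34 and 8 (spawning against pre-spawning, post-spawning against pre-spawning, post-spawning against spawning), beside 2.56%, 3.47% and 2.52% of all features. Without the low-count filter the testis counts for the first pair were 36 and 64 (6.78% and 3.02% of all features). In ovary they were 8, 9 and 3 (spawning against pre-spawning, post-spawning against pre-spawning, post-spawning against spawning), beside 1.38%, 2.14% and 1.74%. Between gonads they were 21, 39 and 23, beside 1.69%, 2.23% and 1.95%. RLE scaling changed no count of members called by over 1.5 times. It set the all-feature median of testis against ovary at spawning to 0.33 (0.17 with TMM), beside 3.18 for the members, and that of the difference between gonads at spawning against pre-spawning to 0.08 (-0.08 with TMM), beside 1.27.

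With 1 library left out, members called ranged from 0 to 30 for testis spawning against pre-spawning (0.0% to 14.7% of all features). They ranged from 0 to 60 for post-spawning against pre-spawning (0.00372% to 17.7%) and 0 to 7 for post-spawning against spawning (0.0% to 0.325%). In every ovary comparison they were 0 (at most 0.0917% of all features). For testis against ovary before, at and after spawning they ranged from 20 to 32, 33 to 41 and 47 to 58. Of all features, 28.6% to 44.0%, 32.5% to 47.1% and 28.4% to 44.9% were called. For the differences between gonads they ranged from 0 to 4, 0 to 23 and 0 to 3. Of all features, 0.0% to 0.362%, 0.0% to 0.79% and 0.00529% to 0.149% were called.

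The rule took 101 features with TMM-scaled CPM and 107 with RLE-scaled CPM, each including 64 of the 65 members, 193 with 2-fold, 13 with 5-fold, and 50 to 113 with a testis library left out (50 without spawning testis 1, 113 and 101 without spawning testis 2 and 3). Summed member levels were 80326 CPM with TMM scaling in post-spawning testis (69787 otherwise). Without the 3 most abundant members they were 379, 673 and 2917 CPM in pre-spawning, spawning and post-spawning testes and 342 and 348 CPM in spawning and post-spawning ovaries. With a library left out they ranged from 7210 to 11110, 12416 to 25169 and 66332 to 75297 CPM in pre-spawning, spawning and post-spawning testes, and from 2383 to 7841, 4228 to 6053 and 4257 to 9050 CPM in the ovaries.

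Of single features, the log2 fold change changed sign with a library left out for cluster19008 (-13.80 to 1.42) in ovary and for cluster38610 (-0.74 to 0.48) and cluster74750 (-6.10 to 1.70) in testis, all for spawning against pre-spawning. For cluster53850 in ovary it ranged from 0 to 9.66, with no counts left at either stage without spawning ovary 3. The other causes were not tested.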
